A study of Homo sapiens with 12 samples.

Results

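A set of 34 genes, reported in the literature as targets of the miR-17, miR-19 or miR-92 families of microRNAs, was followed across RNA fractions of Jurkat, an established line of human T-cell leukaemia. The rule that lists them uses no value from these arrays, but the list was drawn up with earlier results of these data known. Of the 34, 32 had a probe set of a single gene symbol, among 19775 named genes in all. The 30 with a mean level at or above 4.02, the median over the array's probe sets, were tested, among 12824 tested genes. MAP3K8 and EPHA4 lay below that level, and NCOA3 and PKD2 are not analysed here.

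The cells carried either of 2 vectors, a miR-21 construct or the control vector (called control beside values). From each, RNA was taken after immunoprecipitation (IP) with an antibody to AGO2, after IP with control IgG, and from the lysate without IP (Total RNA). The 6 groups were therefore miR-21 AGO2 IP, control vector AGO2 IP, miR-21 IgG IP, control vector IgG IP, miR-21 Total RNA and control vector Total RNA, with 2 arrays each and 12 in all. All cells grew in RPMI medium with 10% serum, with no further treatment on the labels, and 100 ng of IP RNA or 1 ug of Total RNA was labelled. The labels do not say that the replicates were separate cultures or transductions, so p-values measure the spread between these arrays, which may be technical.

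The miR-17 to miR-92 cluster is a group of microRNAs cut from a single transcript, that of the host gene MIR17HG, which the transcription factor MYC activates. It is abundant in T-cell leukaemia. Each mature microRNA is held by an Argonaute protein such as AGO2 and pairs through its seed, the bases near its 5′ end, with sites that lie mostly in the 3′ untranslated region of an mRNA. An AGO2 IP therefore carries target mRNAs along with the microRNAs, and the IgG IP measures what sticks without the AGO2 antibody. The seeds are shown because they define the families by which the targets were reported.

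The 6 mature microRNAs of the cluster lie within 765 bases of the plus strand, at chr13:91350618-91351382 (RefSeq, GRCh38.p14), and all 6 were found in the RefSeq table. They fall into 4 seed groups, and the seed (bases 2 to 8, counted from the 5′ end) is in capitals. The miR-17 family shares its seed with the miR-93 and miR-106 microRNAs made elsewhere in the genome, 8 mature names in all among 2370 in the table. hsa-miR-18a-5p differs from it within the seed, its own seed is held by 3 names, the miR-19 seed is held by 2 names, and the miR-92 seed by 6. hsa-miR-21-5p, at chr17:59841273-59841294, is the microRNA of the construct, and its seed, held by 2 names, is that of none of the cluster's members.
hsa-miR-17-5p: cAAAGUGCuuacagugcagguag
hsa-miR-20a-5p: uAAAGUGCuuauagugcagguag
hsa-miR-18a-5p: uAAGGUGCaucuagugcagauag
hsa-miR-19a-3p: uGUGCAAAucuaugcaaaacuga
hsa-miR-19b-3p: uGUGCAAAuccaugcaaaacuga
hsa-miR-92a-3p: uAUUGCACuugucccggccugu
hsa-miR-21-5p: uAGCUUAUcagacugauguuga

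The values are the authors' RMA values on the log2 scale, so a difference of 1 is a doubling of the signal. Array means were 4.39 to 4.4 in replicate 1 and 5.25 to 5.27 in replicate 2, and levels are compared within a replicate. Of the T cell markers, 9 of 10 were measured and all 9 lay above the filter, against 2 of 5 measured B cell markers, 1 of 4 monocyte markers and 2 of 5 epithelial markers. The 3′ minus 5′ signal of the actin control probe sets, a sign of RNA integrity, was 1.97 to 4.0 in the AGO2 IP arrays, 2.08 to 3.48 in the IgG IP arrays and 1.35 to 3.53 in the Total RNA arrays. It was highest, at 4.0, in the control vector AGO2 IP array of replicate 1, and its part in the results was not tested. Array signal from a bulk culture cannot tell fewer cells from less RNA per cell, nor more bound mRNA from less of the other RNAs in the same IP.

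In replicate 2 the IP arrays grouped by construct and not by antibody. Across the 12824 genes AGO2 IP minus IgG IP had an SD of 0.292 (miR-21) and 0.184 (control) in replicate 2, against 0.791 (miR-21) and 0.828 (control) in replicate 1. For many of the members, the array labelled miR-21 IgG IP of replicate 2 was as high as the miR-21 AGO2 IP array, and the array labelled control vector AGO2 IP of replicate 2 was as low as the control vector IgG IP array. Both arrays thereby went against the pattern that their labels had in replicate 1. They were not the only ones to differ. Control vector IgG IP minus Total RNA had an SD over genes of 0.931 in replicate 2, against 0.487 in replicate 1, and that IgG IP array was kept. Member counts and the differences of called members between fractions are therefore given with all 12 arrays and without these 2, and no array was moved to another group. Both arrays were picked from their values, so what is left without them describes the other 10 arrays and is no independent support.

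**Figure D1:**
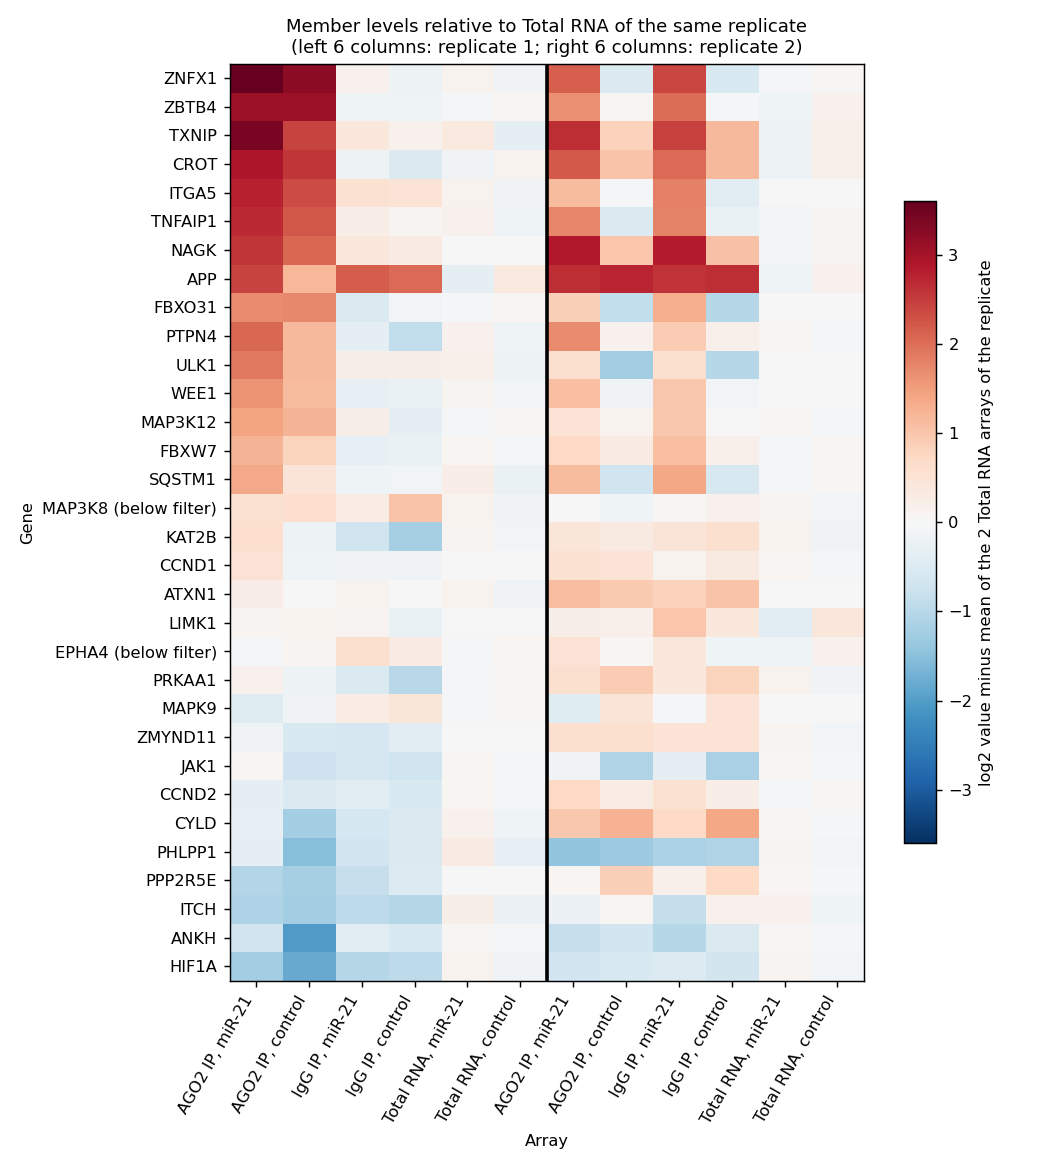
Level of the 32 measured members on each array (columns), as the log2 value minus the mean of both Total RNA arrays of the same replicate, with replicate 1 left of the black line and replicate 2 right of it. ZNFX1, at the top, is dark red on both AGO2 IP arrays of replicate 1 (10.69 with miR-21 and 10.20 with the control vector), and in replicate 2 on both IP arrays of miR-21 cells (9.97 with AGO2 and 10.21 with IgG).

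The first comparison, AGO2 IP against Total RNA, sets the AGO2 IP against the lysate, as the mean of both constructs. It holds whatever binds without the AGO2 antibody as well, and 100 ng of IP RNA was labelled against 1 ug of Total RNA, so a call is not a measure of binding to AGO2 alone. With the replicate number as a block, 5 members were higher in the AGO2 IP (TXNIP, APP, CROT, NAGK and PTPN4) and 3 were lower (ANKH, HIF1A and PHLPP1), of 30 tested, at a Benjamini-Hochberg adjusted p under 0.05 in limma. Over all genes tested, 4.71% were higher and 11.3% were lower by the same rule. The median difference was 0.57 over the members and -0.05 over all genes tested, and 23 of the 30 members were above 0. Without the block, no member and no gene passed (background 0% in each direction), with 9 members and 1230 genes at an unadjusted p under 0.05.

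Without the 2 arrays of replicate 2, the block model called 14 members higher and 3 lower, against 8.58% of all genes higher and 13.3% lower. The additional 9 were ZNFX1, ZBTB4, TNFAIP1, ITGA5, FBXO31, WEE1, MAP3K12, FBXW7 and SQSTM1, and the 3 lower members were again ANKH, HIF1A and PHLPP1. All 9 also lay above Total RNA on both AGO2 IP arrays of replicate 1. That is no separate support, because the 2 arrays were picked for going against the pattern of replicate 1. Leaving them out, of which 1 is an AGO2 IP array, also sets these calls in part. Calls and counts without the 2 arrays, here and below, are therefore a description and no test. In fits of 1 replicate, here and below, the constructs stand in for replicates, so p-values there hold no spread between replicates. In replicate 1 alone 15 members were higher and 4 lower (13.0% and 23.3% of all genes), and in replicate 2 alone 7 were higher and 2 lower (15.8% and 19.4%). Single arrays set the count of 8. It was 14 without the control vector AGO2 IP of replicate 2, when 23.8% of all genes were called in either direction. Without a Total RNA array of replicate 1 it was 4 (14.2% of all genes for the control vector array and 9.33% for the miR-21 array). It was 3 when the control vector AGO2 IP of replicate 1 was left out (8.02%). Leaving out the miR-21 AGO2 IP of replicate 1 gave 1 (0.530%), leaving out either array of Total RNA in replicate 2 gave 1 (0.444% and 0.413%), and leaving out the miR-21 AGO2 IP of replicate 2 gave 0 (0.0156%). The count over all genes fell in the same omissions as that of the members. Over 22 settings APP passed in 19, TXNIP and NAGK in 15, PHLPP1 in 14, HIF1A in 13, CROT in 12, PTPN4 in 11 and ANKH in 8. These settings include the block model that made the calls and the fits with each array left out, which share most of their arrays. The model without the block and with no other change, where none passed, is not among them.

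**Figure D2:**
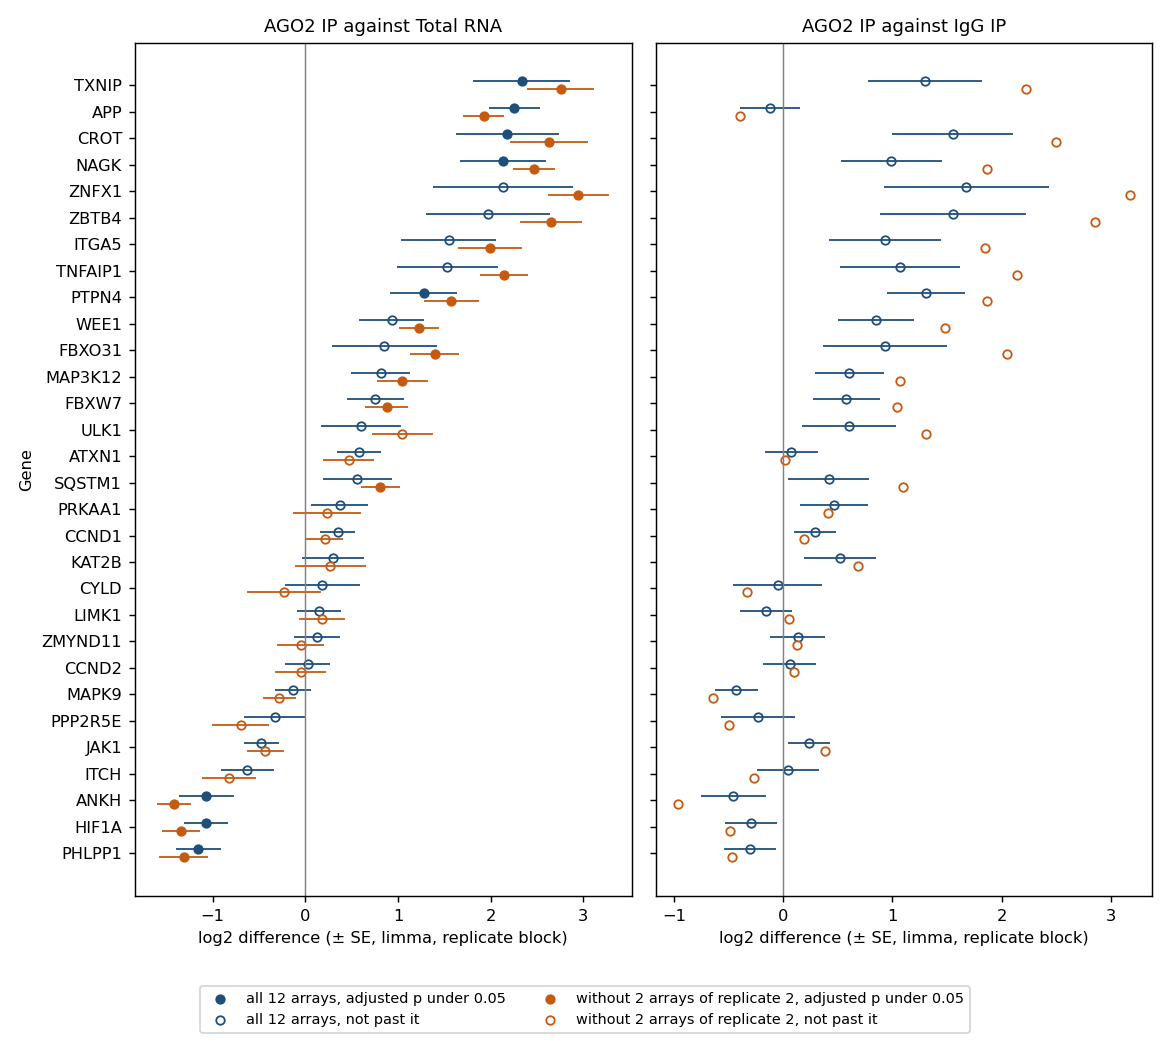
Log2 difference of each tested member (points, with the SE as bars) in AGO2 IP against Total RNA (left) and AGO2 IP against IgG IP (right), from all 12 arrays in blue and without 2 arrays of replicate 2 in orange. Filled points passed an adjusted p of 0.05, 8 of 30 on the left with all arrays and none on the right with all arrays. Which orange points on the left are filled depends in part on the choice of the 2 arrays, made from their values. The orange points on the right are differences with no test.

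All 3 metabolic members (TXNIP, CROT and NAGK) were higher in the AGO2 IP than in Total RNA, by 2.13 to 2.34 on the log2 scale. TXNIP encodes the thioredoxin-interacting protein, which restrains glucose uptake and is a reported miR-17 family target. TXNIP in replicate 1 read 11.63 (miR-21) and 10.64 (control) in the AGO2 IP, 8.58 (miR-21) and 8.36 (control) in the IgG IP, and 8.55 (miR-21) and 7.86 (control) in Total RNA. TXNIP in replicate 2 read 12.76 (miR-21) and 10.90 (control) in the AGO2 IP, 12.54 (miR-21) and 11.26 (control) in the IgG IP, and 9.91 (miR-21) and 10.26 (control) in Total RNA. Every AGO2 IP array was above both Total RNA arrays of its replicate. The IgG IP arrays were nearer to Total RNA in replicate 1 than in replicate 2. The difference was 2.34 ± 0.52 (SE, with an adjusted p of 0.0232), and 2.76 ± 0.36 without the 2 arrays.

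CROT is a peroxisomal enzyme that moves medium-chain acyl groups onto carnitine. CROT in replicate 1 read 9.36 (miR-21) and 9.02 (control) in the AGO2 IP, 6.27 (miR-21) and 5.92 (control) in the IgG IP, and 6.32 (miR-21) and 6.56 (control) in Total RNA. CROT in replicate 2 read 10.09 (miR-21) and 8.91 (control) in the AGO2 IP, 9.94 (miR-21) and 9.05 (control) in the IgG IP, and 7.71 (miR-21) and 8.07 (control) in Total RNA. The AGO2 IP arrays again lay above Total RNA throughout, with the larger gaps in replicate 1. The IgG IP arrays lay below Total RNA in replicate 1 and above it in replicate 2. In the block model CROT was higher by 2.18 ± 0.56 (adjusted p = 0.0322), and by 2.63 ± 0.42 without the 2 arrays. These values are of 1 probe set. On its other probe sets, control vector AGO2 IP minus Total RNA was -0.81 and -0.23 in replicate 1, and 2.80 and 0.68 in replicate 2. With miR-21 it was 0.72 and 0.08 in replicate 1, and 1.87 and 0.28 in replicate 2.

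NAGK is the kinase that salvages N-acetylglucosamine for sugar nucleotide synthesis. NAGK in replicate 1 read 10.48 (miR-21) and 9.96 (control) in the AGO2 IP, 8.29 (miR-21) and 8.19 (control) in the IgG IP, and 7.92 (miR-21) and 7.87 (control) in Total RNA. NAGK in replicate 2 read 11.37 (miR-21) and 9.46 (control) in the AGO2 IP, 11.30 (miR-21) and 9.53 (control) in the IgG IP, and 8.36 (miR-21) and 8.58 (control) in Total RNA. In replicate 2 both miR-21 IP arrays stood apart from the other 4, while both control vector IP arrays were nearer to Total RNA. NAGK was higher by 2.13 ± 0.46 (adjusted p = 0.0219), and its SE narrowed to 0.23 without the 2 arrays, at a difference of 2.47.

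Of the membrane, adhesion and cytoskeleton genes, 4 were tested. APP was higher and ANKH lower in the AGO2 IP, and ITGA5 and LIMK1 did not pass with all arrays. APP encodes the amyloid precursor protein, a membrane protein best known from Alzheimer disease. APP in replicate 1 read 9.91 (miR-21) and 8.69 (control) in the AGO2 IP, 9.67 (miR-21) and 9.53 (control) in the IgG IP, and 7.14 (miR-21) and 7.82 (control) in Total RNA. APP in replicate 2 read 10.15 (miR-21) and 10.24 (control) in the AGO2 IP, 10.11 (miR-21) and 10.16 (control) in the IgG IP, and 7.35 (miR-21) and 7.65 (control) in Total RNA. APP stood above Total RNA on every IP array, with the AGO2 antibody and with IgG alike. It was higher in the AGO2 IP by 2.26 ± 0.27 (adjusted p = 0.00662), and by 1.92 ± 0.22 without the 2 arrays. Against the IgG IP the difference was -0.12 ± 0.27. Its probe set is 1 of 3 used here for the gene, and the others differed by 0.57 and 0.16 in the same direction.

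ANKH encodes a membrane protein that exports pyrophosphate from cells. ANKH in replicate 1 read 7.92 (miR-21) and 6.58 (control) in the AGO2 IP, 8.25 (miR-21) and 8.08 (control) in the IgG IP, and 8.66 (miR-21) and 8.58 (control) in Total RNA. ANKH in replicate 2 read 8.71 (miR-21) and 8.86 (control) in the AGO2 IP, 8.51 (miR-21) and 9.04 (control) in the IgG IP, and 9.60 (miR-21) and 9.49 (control) in Total RNA. All AGO2 IP arrays lay below the Total RNA arrays of their replicate, and so did all IgG IP arrays. The lowest value was on the control vector AGO2 IP array of replicate 1, the array with the highest actin 3′ minus 5′ signal. ANKH was lower in the AGO2 IP by a difference of -1.07 ± 0.30 (adjusted p = 0.0417), and -1.42 ± 0.18 without the 2 arrays. With each array left out it ran from -1.45 to -0.69, and it was -0.69 without the control vector AGO2 IP of replicate 1 (adjusted p = 0.0702). The call was lost with median centring (adjusted p = 0.0519), with cyclic loess (0.0503) and with the mean of all probe sets (difference -0.29, adjusted p = 0.172), each with the block.

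ITGA5 is an integrin alpha subunit of the fibronectin receptor and a reported miR-92 family target. ITGA5 in replicate 1 read 8.36 (miR-21) and 7.96 (control) in the AGO2 IP, 6.17 (miR-21) and 6.11 (control) in the IgG IP, and 5.73 (miR-21) and 5.48 (control) in Total RNA. ITGA5 in replicate 2 read 6.60 (miR-21) and 5.41 (control) in the AGO2 IP, 7.29 (miR-21) and 5.05 (control) in the IgG IP, and 5.47 (miR-21) and 5.46 (control) in Total RNA. In replicate 2 only the miR-21 IP arrays exceeded Total RNA, and the IgG IP array was the higher of the pair. ITGA5 differed by 1.55 ± 0.51 with all arrays (adjusted p = 0.0709) and by 1.99 ± 0.35 without the 2. LIMK1, a kinase of cofilin, differed by 0.15 ± 0.24. EPHA4, an ephrin receptor, was below the filter, with levels of 3.48 to 4.22 on the 12 arrays.

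Among the MAP kinase and cytokine signalling genes, PTPN4 was the single member of 4 tested to pass with all arrays. PTPN4 encodes a tyrosine phosphatase that acts at the plasma membrane and the cytoskeleton. PTPN4 in replicate 1 read 8.14 (miR-21) and 7.25 (control) in the AGO2 IP, 5.74 (miR-21) and 5.18 (control) in the IgG IP, and 6.23 (miR-21) and 5.92 (control) in Total RNA. PTPN4 in replicate 2 read 9.63 (miR-21) and 8.09 (control) in the AGO2 IP, 8.84 (miR-21) and 8.13 (control) in the IgG IP, and 8.0 (miR-21) and 7.86 (control) in Total RNA. It was above Total RNA on both AGO2 IP arrays of each replicate, by 0.24 for the control vector in replicate 2 and by 1.33 to 1.91 otherwise. The IgG IP arrays lay below Total RNA in replicate 1 and above it in replicate 2. PTPN4 was higher by 1.28 ± 0.36 (adjusted p = 0.0434), and by 1.58 ± 0.30 without the 2 arrays, and the call was lost with the mean of all its probe sets (0.67, adjusted p = 0.135).

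MAP3K12, a kinase upstream of JNK, differed by 0.81 ± 0.32 with all arrays and by 1.05 ± 0.27 without the 2. JAK1, the kinase of many cytokine receptors, differed by -0.48 ± 0.19 (adjusted p = 0.118). MAPK9, which encodes a JNK kinase, differed by -0.14 ± 0.19. MAP3K8, another MAP kinase activator, was below the filter, with levels of 2.42 to 3.57 on the 12 arrays.

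Of the survival, autophagy and energy signalling genes, 5 were tested and PHLPP1 was lower. PHLPP1 encodes a phosphatase that removes an activating phosphate from AKT. PHLPP1 in replicate 1 read 4.89 (miR-21) and 3.72 (control) in the AGO2 IP, 4.58 (miR-21) and 4.73 (control) in the IgG IP, and 5.54 (miR-21) and 4.98 (control) in Total RNA. PHLPP1 in replicate 2 read 4.61 (miR-21) and 4.70 (control) in the AGO2 IP, 4.88 (miR-21) and 4.95 (control) in the IgG IP, and 6.11 (miR-21) and 5.92 (control) in Total RNA. It lay below Total RNA on every IP array of either antibody, and in replicate 2 the 4 IP arrays were close to each other. PHLPP1 differed by -1.16 ± 0.24 (adjusted p = 0.0202), and by -1.31 ± 0.27 without the 2 arrays, with the call lost on the mean of its probe sets (-0.56, adjusted p = 0.0537).

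The autophagy members SQSTM1, a cargo receptor, and ULK1, the kinase that starts autophagosome formation, showed the split by construct in replicate 2. They and the other genes outside the called set were chosen for full values after their values were seen. SQSTM1 in replicate 1 read 8.04 (miR-21) and 7.16 (control) in the AGO2 IP, 6.54 (miR-21) and 6.60 (control) in the IgG IP, and 6.92 (miR-21) and 6.46 (control) in Total RNA. SQSTM1 in replicate 2 read 7.82 (miR-21) and 5.98 (control) in the AGO2 IP, 8.07 (miR-21) and 6.12 (control) in the IgG IP, and 6.66 (miR-21) and 6.72 (control) in Total RNA. Both miR-21 IP arrays were above Total RNA in replicate 2, and both control vector IP arrays were below it. SQSTM1 differed by 0.56 ± 0.37 with all arrays and by 0.81 ± 0.21 without the 2.

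ULK1 in replicate 1 read 8.35 (miR-21) and 7.63 (control) in the AGO2 IP, 6.65 (miR-21) and 6.66 (control) in the IgG IP, and 6.64 (miR-21) and 6.26 (control) in Total RNA. ULK1 in replicate 2 read 7.43 (miR-21) and 5.60 (control) in the AGO2 IP, 7.45 (miR-21) and 5.84 (control) in the IgG IP, and 6.88 (miR-21) and 6.84 (control) in Total RNA. The order of the 6 arrays in replicate 2 was like that of SQSTM1, with the control vector IP arrays at the bottom. ULK1 differed by 0.60 ± 0.43 (adjusted p = 0.387), and by 1.05 ± 0.33 without the 2 arrays. PRKAA1, a catalytic subunit of the energy sensor AMPK, differed by 0.37 ± 0.31, and PPP2R5E, a regulatory subunit of protein phosphatase 2A, by -0.33 ± 0.34.

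Of the transcription and chromatin genes, 6 were tested. HIF1A, the oxygen-regulated subunit of the hypoxia-inducible factor, was lower in the AGO2 IP. HIF1A in replicate 1 read 9.18 (miR-21) and 8.62 (control) in the AGO2 IP, 9.42 (miR-21) and 9.48 (control) in the IgG IP, and 10.57 (miR-21) and 10.30 (control) in Total RNA. HIF1A in replicate 2 read 10.86 (miR-21) and 11.02 (control) in the AGO2 IP, 11.06 (miR-21) and 10.91 (control) in the IgG IP, and 11.65 (miR-21) and 11.46 (control) in Total RNA. Every IP array was below the Total RNA arrays of its replicate. HIF1A differed by -1.07 ± 0.24 (adjusted p = 0.0230) and by -1.34 ± 0.21 without the 2 arrays.

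ZNFX1, an RNA helicase-like zinc finger protein of antiviral defence, had the largest difference of the members without the 2 arrays. ZNFX1 in replicate 1 read 10.69 (miR-21) and 10.20 (control) in the AGO2 IP, 7.14 (miR-21) and 6.81 (control) in the IgG IP, and 7.12 (miR-21) and 6.86 (control) in Total RNA. ZNFX1 in replicate 2 read 9.97 (miR-21) and 7.29 (control) in the AGO2 IP, 10.21 (miR-21) and 7.28 (control) in the IgG IP, and 7.77 (miR-21) and 7.87 (control) in Total RNA. In replicate 1 only the AGO2 IP arrays were high. In replicate 2 the miR-21 arrays of both antibodies were high and the control vector arrays of both lay below Total RNA. ZNFX1 differed by 2.13 ± 0.75 with all arrays (adjusted p = 0.0844) and by 2.95 ± 0.33 without the 2.

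ZBTB4 is a zinc finger repressor that binds methylated DNA and is a reported miR-17 family target. ZBTB4 in replicate 1 read 10.25 (miR-21) and 10.27 (control) in the AGO2 IP, 7.01 (miR-21) and 7.0 (control) in the IgG IP, and 7.11 (miR-21) and 7.22 (control) in Total RNA. ZBTB4 in replicate 2 read 9.92 (miR-21) and 8.33 (control) in the AGO2 IP, 10.30 (miR-21) and 8.25 (control) in the IgG IP, and 8.13 (miR-21) and 8.42 (control) in Total RNA. It had the same arrangement as ZNFX1 in both replicates, with the control vector IP arrays of replicate 2 slightly below Total RNA for that construct. The difference was 1.97 ± 0.67 with all arrays (adjusted p = 0.0750), and 2.65 ± 0.33 without the 2. KAT2B, a histone acetyltransferase, differed by 0.30 ± 0.33, ATXN1, a corepressor with a polyglutamine tract, by 0.58 ± 0.24, and ZMYND11, a chromatin reader, by 0.12 ± 0.25.

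In the ubiquitin system, none of 3 tested members passed with all arrays. TNFAIP1, an adaptor of a cullin ubiquitin ligase, differed by 1.53 ± 0.55 with all arrays (adjusted p = 0.0883) and by 2.14 ± 0.26 without the 2. TNFAIP1 in replicate 1 read 9.15 (miR-21) and 8.69 (control) in the AGO2 IP, 6.71 (miR-21) and 6.55 (control) in the IgG IP, and 6.62 (miR-21) and 6.30 (control) in Total RNA. TNFAIP1 in replicate 2 read 8.82 (miR-21) and 6.54 (control) in the AGO2 IP, 8.86 (miR-21) and 6.82 (control) in the IgG IP, and 6.98 (miR-21) and 7.16 (control) in Total RNA. The miR-21 AGO2 IP and IgG IP arrays of replicate 2 differed by -0.04, and both control vector IP arrays were below Total RNA. ITCH, a ubiquitin ligase of T cells, differed by -0.63 ± 0.28, and CYLD, a deubiquitinase that restrains NF-kappaB, by 0.18 ± 0.41.

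CYLD lay on opposite sides of Total RNA in the replicates. CYLD in replicate 1 read 5.86 (miR-21) and 4.95 (control) in the AGO2 IP, 5.53 (miR-21) and 5.63 (control) in the IgG IP, and 6.32 (miR-21) and 5.99 (control) in Total RNA. CYLD in replicate 2 read 8.24 (miR-21) and 8.51 (control) in the AGO2 IP, 7.96 (miR-21) and 8.64 (control) in the IgG IP, and 7.31 (miR-21) and 7.20 (control) in Total RNA. All 4 IP arrays of replicate 2 were above Total RNA, with the control vector IPs highest, and in replicate 1 every IP array was below the Total RNA array of its construct. This holds for 1 probe set. On its other probe sets at or above the filter, AGO2 IP minus Total RNA in replicate 2 was -0.21 and -0.20 (miR-21) and 0.38 and 0.33 (control). Fitted alone, replicate 2 called CYLD higher by 1.12 ± 0.24 (adjusted p = 0.0135), and replicate 1 gave -0.75 ± 0.26 (adjusted p = 0.0655).

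The cell cycle genes held 5 tested members, and none passed with all arrays. Among the 5 were WEE1, the kinase that holds back entry into mitosis, and FBXO31, an F-box protein that brings cyclin D1 to degradation. FBXW7, the F-box protein for cyclin E and MYC, was also among them. With all arrays the differences were 0.93 (WEE1), 0.85 (FBXO31) and 0.76 (FBXW7). Without the 2 arrays they were 1.23 ± 0.21 (WEE1), 1.39 ± 0.26 (FBXO31) and 0.88 ± 0.23 (FBXW7). WEE1 in replicate 1 read 11.38 (miR-21) and 10.90 (control) in the AGO2 IP, 9.47 (miR-21) and 9.51 (control) in the IgG IP, and 9.85 (miR-21) and 9.66 (control) in Total RNA. WEE1 in replicate 2 read 12.16 (miR-21) and 10.93 (control) in the AGO2 IP, 12.03 (miR-21) and 10.96 (control) in the IgG IP, and 11.05 (miR-21) and 11.08 (control) in Total RNA. In replicate 2 the control vector IP arrays of WEE1 lay slightly below Total RNA, and the miR-21 IP arrays lay above it.

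FBXO31 in replicate 1 read 8.90 (miR-21) and 8.93 (control) in the AGO2 IP, 6.68 (miR-21) and 7.11 (control) in the IgG IP, and 7.13 (miR-21) and 7.28 (control) in Total RNA. FBXO31 in replicate 2 read 8.55 (miR-21) and 6.80 (control) in the AGO2 IP, 9.0 (miR-21) and 6.66 (control) in the IgG IP, and 7.67 (miR-21) and 7.70 (control) in Total RNA. FBXO31 had the widest split by construct among the cell cycle genes, with the control vector IP arrays of replicate 2 below Total RNA and the miR-21 IP arrays above it. CCND1 and CCND2, the D-type cyclins that drive entry into S phase, are among the best known reported miR-17 family targets. CCND1 differed by 0.35 ± 0.19 (adjusted p = 0.255) and CCND2 by 0.03 ± 0.24 (adjusted p = 0.952). CCND1 was low throughout, at 3.31 to 5.13 on the 12 arrays, and CCND2 ran from 7.15 to 9.94.

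AGO2 IP against IgG IP sets the AGO2 antibody against the antibody background, with the same AGO2 IP arrays as above. With all 12 arrays no member and no gene passed, with or without the block (background 0%). With the block, 5 members and 663 genes had an unadjusted p under 0.05, and the smallest adjusted p was 0.819. Without the block these were 0 members and 29 genes. The median difference was 0.44 over the members and -0.08 over all genes.

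The 2 arrays of replicate 2 were picked because AGO2 IP and IgG IP were alike there, so the differences left without them are given as a description, with no test. The median was 0.55 over the members and -0.09 over all genes. ZNFX1 was at 3.17, ZBTB4 at 2.86, CROT at 2.50, TXNIP at 2.22, TNFAIP1 at 2.14 and FBXO31 at 2.05. NAGK, PTPN4 and ITGA5 followed at 1.85 to 1.87, then WEE1 at 1.48, ULK1 at 1.31, SQSTM1 at 1.09, MAP3K12 at 1.07 and FBXW7 at 1.04. The lowest members were ANKH, at -0.96, and MAPK9, at -0.65, and APP was at -0.40. By the threshold used elsewhere 12 members lay above and 1 below, beside 5.95% and 1.47% of all genes, and nothing is read from these counts, which the choice of arrays sets in part.

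The replicates did not repeat this comparison. Replicate 1 alone called 16 members higher and 1 lower (MAPK9, -0.63 ± 0.16), against 12.5% and 11.5% of all genes, with a median of 0.89 over the members and -0.12 over all genes. The 16 were the genes named above from ZNFX1 to FBXW7, with KAT2B and PRKAA1. Replicate 2 alone called no member and no gene (background 0%), with 0 members and 47 genes at an unadjusted p under 0.05, and a median of -0.02 over the members and -0.03 over all genes.

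Array by array, the members of replicate 1 ran from -0.69 to 3.55 in miR-21 cells and from -1.51 to 3.39 in control vector cells, as AGO2 IP minus IgG IP. In miR-21 cells 15 of 30 were past 1, against 10.7% of all genes, and in control vector cells 13 of 30, against 8.87%. In replicate 2 the members ran from -0.80 to 0.79 in miR-21 cells and from -0.36 to 0.36 in control vector cells, and none was past 1, against 0.0468% and 0.00780% of all genes. ZNFX1 shows the contrast, at 3.55 (miR-21) and 3.39 (control) in replicate 1 and at -0.24 (miR-21) and 0.01 (control) in replicate 2. In replicate 2 LIMK1 had the lowest and PTPN4 the highest value, both in miR-21 cells.

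**Figure D3:**
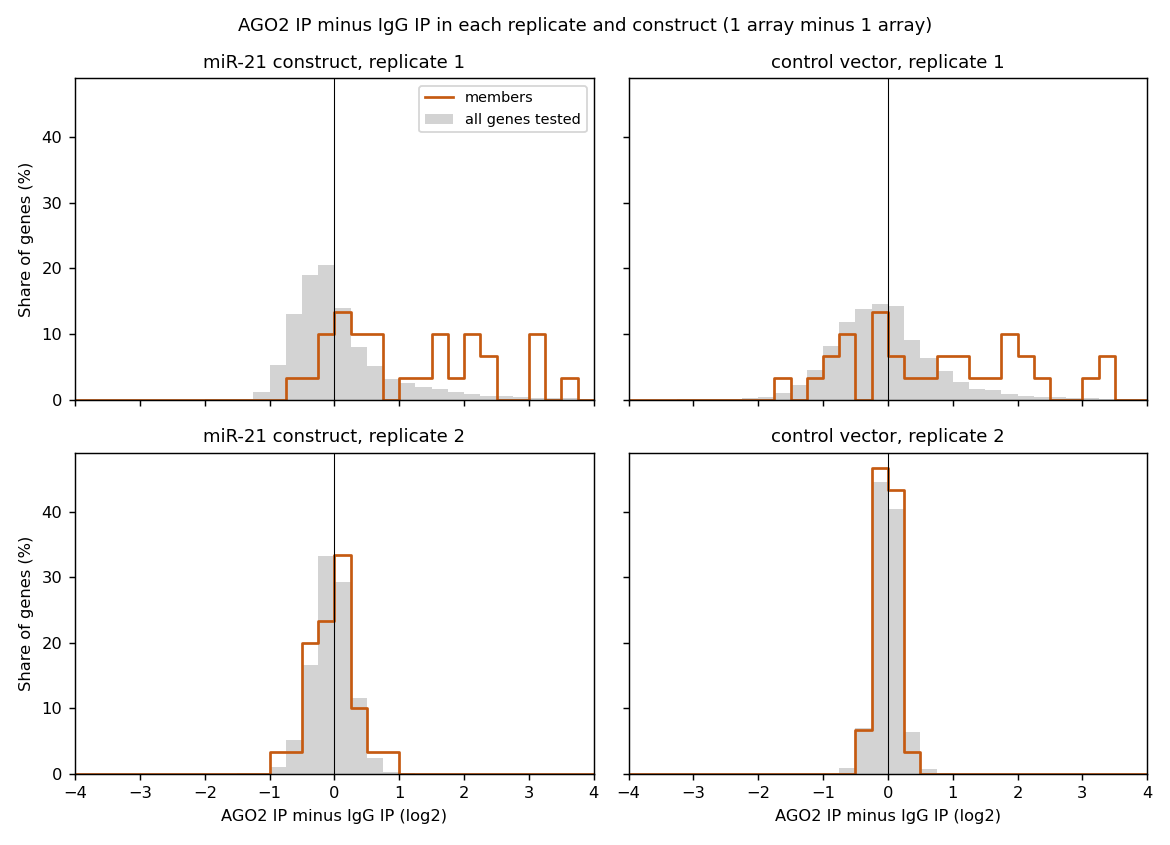
AGO2 IP minus IgG IP (log2, 1 array minus 1 array) for miR-21 cells (left) and control vector cells (right) in replicate 1 (top) and replicate 2 (bottom), as the share of the 30 members (orange line) and of all 12824 genes tested (grey bars) in each bin. The members reach 3.55 and 3.39 in replicate 1 and stay between -0.80 and 0.79 in replicate 2.

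IgG IP against Total RNA measures what the antibody background carries, and it shares the Total RNA arrays with the first comparison. With the block, APP was higher in the IgG IP, by 2.37 ± 0.27 (adjusted p = 0.00815), and no other member passed, against 0.296% of all genes higher and 1.62% lower. Without the 2 arrays the difference of APP was 2.32 ± 0.22. Without the block no member or gene passed (background 0%), with 1 member and 437 genes at an unadjusted p under 0.05. The APP call was lost without the control vector IgG IP of replicate 1, either Total RNA array of replicate 2 or either IgG IP array of replicate 2, at differences within 2.18 to 2.57 over all arrays left out in turn.

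APP differed from the same Total RNA arrays by 2.26 in the AGO2 IP and by 2.37 in the IgG IP, and AGO2 IP against IgG IP gave -0.12 ± 0.27 (adjusted p = 0.912). The other 2 probe sets of APP differed by 0.53 and -0.17 in the IgG IP against Total RNA, so the large difference was measured on 1 probe set. Replicate 1 alone called ITCH lower (-0.98 ± 0.17, adjusted p = 0.0463) and no member higher, against 2.99% and 0.772% of all genes. Replicate 2 alone called 6 members higher and 2 lower, against 14.7% and 16.6%. The 6 were APP, NAGK, TXNIP, CROT, CYLD and ATXN1, and the 2 were PHLPP1 and ANKH. The call of ATXN1 is of 1 probe set, and its other one at or above the filter was at -0.06 (miR-21) and -0.535 (control).

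The miR-21 construct was set against the control vector in each fraction, the contrast by which the study looked for miR-21 targets. No member and no gene passed in the AGO2 IP, the IgG IP or Total RNA, with or without the block or the 2 arrays (background 0%). With the block, 3 members and 353 genes had an unadjusted p under 0.05 in the AGO2 IP, against 0 and 123 in the IgG IP and 0 and 3 in Total RNA. The 3 were JAK1 (0.89 ± 0.27), PTPN4 (1.21 ± 0.51) and SQSTM1 (1.37 ± 0.53), each with an adjusted p of 1. The median over the members was 0.56 in the AGO2 IP, 0.45 in the IgG IP and 0.08 in Total RNA, and over all genes 0.07, 0.04 and 0.02.

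Over the members, the median in the IgG IP was 0.67 in replicate 2 and 0.10 in replicate 1, and in the AGO2 IP it was 0.39 in replicate 2 and 0.47 in replicate 1. In replicate 2, 10 of 30 members were more than 1 higher with miR-21 on the IgG IP arrays, against 8.54% of all genes, and 12 of 30 on the AGO2 IP arrays, against 7.12%. Replicate 1 had 0 of 30 on the IgG IP arrays (0.491% of all genes) and 3 of 30 on the AGO2 IP arrays (5.28%). The 3 were ANKH at 1.34, APP at 1.22 and PHLPP1 at 1.18, and the actin 3′ minus 5′ signal of those arrays was 1.97 (miR-21) and 4.0 (control). Its part in these differences was not tested. Neither replicate had a member past 1 in Total RNA, where the extremes were 0.70 for TXNIP in replicate 1 and -0.79 for LIMK1 in replicate 2.

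ZNFX1 had the largest construct differences of replicate 2, at 2.68 in the AGO2 IP and 2.94 in the IgG IP, against 0.49 and 0.33 in replicate 1. TNFAIP1 had 2.28 and 2.04 in replicate 2, NAGK 1.90 and 1.78, SQSTM1 1.85 and 1.94, and FBXO31 1.75 and 2.34. In replicate 1 none of these was past 1 on the arrays of either antibody. The same genes differed by at most 0.46 between the constructs in Total RNA of either replicate. Without the 2 arrays the medians were 0.42 in the AGO2 IP and -0.14 in the IgG IP.

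**Figure D4:**
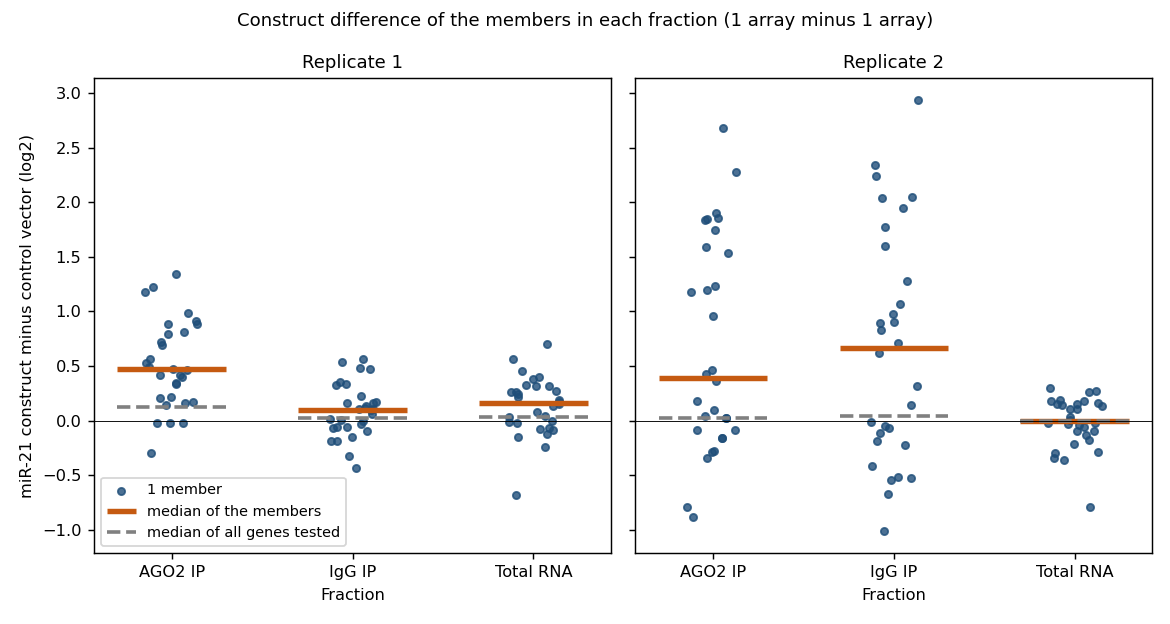
MiR-21 construct minus control vector (log2, 1 array minus 1 array) for each of the 30 tested members (blue points) in the AGO2 IP, the IgG IP and Total RNA, for replicate 1 (left) and replicate 2 (right), with the median of the members (orange) and of all genes (grey dashes). In replicate 2 the members spread up to 2.68 and 2.94 on the IP arrays, while in Total RNA they stay between -0.79 and 0.30.

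The interaction, which asks whether AGO2 IP against IgG IP differed between the constructs, called no member and no gene with or without the block or the 2 arrays (background 0%). Its median was 0.26 over the members and 0.03 over all genes. With the block, 0 members and 39 genes had an unadjusted p under 0.05. Without the 2 arrays 2 members did, ANKH (1.15 ± 0.42) and APP (1.30 ± 0.50), among 643 genes, each with an adjusted p of 0.804.

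Grouped by the family for which they were reported, the 12 tested miR-17 family targets had 2 members higher and 1 lower in AGO2 IP against Total RNA, with a median of 0.45. Over all genes tested 4.71% were higher and 11.3% lower, with a median of -0.05. Without the 2 arrays of replicate 2 the miR-17 family targets had 5 higher and 1 lower, with a median of 0.54, against 8.58% and 13.3% of all genes. Both miR-92 targets, ITGA5 and FBXW7, missed the threshold with all arrays, with a median of 1.15, and of 1.43 without the 2 arrays. None of the 4 miR-19 targets (PRKAA1, PPP2R5E, CYLD and ATXN1) passed in either model, and their differences ran from -0.33 to 0.58 with all arrays. The 12 tested members that were not assigned to a family here had 3 higher and 2 lower, with a median of 0.83, and a median of 1.22 without the 2 arrays. The families were not tested against each other.

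PPP2R5E in replicate 1 read 9.05 (miR-21) and 8.89 (control) in the AGO2 IP, 9.28 (miR-21) and 9.60 (control) in the IgG IP, and 10.09 (miR-21) and 10.10 (control) in Total RNA. PPP2R5E in replicate 2 read 11.49 (miR-21) and 12.28 (control) in the AGO2 IP, 11.60 (miR-21) and 12.15 (control) in the IgG IP, and 11.50 (miR-21) and 11.34 (control) in Total RNA. The IP arrays of replicate 1 lay below Total RNA, and in replicate 2 the control vector IP arrays lay above it. ATXN1 lay above Total RNA on all 4 IP arrays of replicate 2, at 5.59 to 5.88, against 4.76 and 4.78 in Total RNA, and levels of 3.30 to 3.67 in replicate 1. PRKAA1 was at 7.85 to 8.40 on the IP arrays of replicate 2, against 7.34 to 7.61 in Total RNA. In replicate 1 it was at 5.99 to 6.33 in the AGO2 IP, 5.16 to 5.64 in the IgG IP and 6.13 to 6.20 in Total RNA.

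Beside the probe sets above, the members had 72 others, for 26 genes, and 6 members had a single probe set. In AGO2 IP against Total RNA 55 of the 72 had the sign of the gene's first probe set, and so did 38 of the 43 at or above the filter. The second probe set of WEE1 differed by 1.38, those of FBXW7 at or above the filter by 1.00 and 0.92, and those of PTPN4 by 1.11 and 0.09. CROT had 1.14 and 0.20 on its other probe sets, and TNFAIP1 0.42. SQSTM1 was divided, with -0.72 and 0.22 on its other probe sets at or above the filter, and FBXO31 had 0.05. CYLD had -0.41 and -0.42 on such probe sets, against 0.18 on its first.

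Genes of the same pathway that are not in the set of 34 came from a list of 24 other reported cluster targets, of which 22 were measured and 19 tested. In AGO2 IP against Total RNA with the block 5 were higher and 1 lower, and the median was 0.17, against 4.71% of all genes higher, 11.3% lower and a median of -0.05. The counts were again 5 and 1 without the 2 arrays, with a median of 0.15, against 8.58% and 13.3% of all genes. MYLIP, a ubiquitin ligase for the LDL receptor, was higher by 3.67 ± 0.71, and SOCS1, an inhibitor of cytokine signalling, by 3.59 ± 0.87. TGFBR2 was higher by 2.25 ± 0.48, the death-promoting BCL2L11 by 1.39 ± 0.31 and E2F3 by 1.05 ± 0.29. BMPR2, a BMP receptor, was lower, at -1.72 ± 0.39. Of 24 reported miR-21 targets, 14 were tested, with 4 higher (TGFBR2, SESN1, TPM1 and FAS, at 1.57 to 2.25), 2 lower (BMPR2 and TIAM1) and a median of 0.21, against the same 4.71% and 11.3% of all genes. Leaving out the 2 arrays gave 5 higher and 1 lower, with a median of 0.19. Both lists hold TGFBR2, BMPR2 and STAT3 among their tested genes.

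SOCS1 had the split by construct on the IP arrays of replicate 2. It was at 8.59 (miR-21) and 8.10 (control) in the AGO2 IP of replicate 1, against 4.07 (miR-21) and 3.39 (control) in the IgG IP. In replicate 2 it was at 7.51 (miR-21) and 5.57 (control) in the AGO2 IP, against 7.67 (miR-21) and 5.52 (control) in the IgG IP. MYLIP, with a smaller split, was above Total RNA on all 4 IP arrays of replicate 2, at 8.72 to 9.90 against 6.39 to 6.51.

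MYC, the activator of the cluster, differed by 0.64 ± 0.39 in AGO2 IP against Total RNA (adjusted p = 0.293) and by 1.01 ± 0.31 without the 2 arrays. Its levels in replicate 2 were 12.25 (miR-21) and 10.79 (control) in the AGO2 IP, 12.10 (miR-21) and 10.84 (control) in the IgG IP, and 11.71 (miR-21) and 11.61 (control) in Total RNA. MYC thus had the same split by construct on the IP arrays of replicate 2. MIR17HG, the host transcript, was below the filter, at 1.81 to 2.91 on the 12 arrays, and its array signal does not measure the mature microRNAs.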

How the data were processed

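RNA of Jurkat cells was measured on 12 Affymetrix arrays. The deposited values are log2 values that the authors made with RMA, per the submitters' processing notes; its version, and whether all arrays were normalized together, is not given in the sources used here. Probe sets were named with the platform's gene symbols (annotation of GEO, which can be old), and 41091 of 54675 had a single symbol. Each gene took the value of its brightest probe set, by the mean over the arrays. Most arrays are of IPs, so a probe set could be chosen for high signal there.

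Tests were run on 12824 genes in limma 3.58.1 (R 4.3.3, with data.table, version 1.17.8), with a mean for each of 6 groups and moderated spread, Benjamini-Hochberg adjustment over all genes and a threshold of 0.05. The model without the replicate number had 6 residual degrees of freedom, and 5 with it as a block. Fits of 1 replicate instead took terms for the fraction and the construct, with 2 residual degrees of freedom. In them the constructs stand in for replicates, so their SEs and p-values hold no spread between replicates. Arrays of the same number deviated together from the means of their groups, with correlations of 0.468 to 0.873 (median 0.601) over 15 pairs of groups, across genes, so the numbers pair the arrays and blocked values stand beside the others. SEs are from the block model, except where a fit of 1 replicate is named. With 2 arrays a group, their number limits the precision. The scripts were tested on simulated data.

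The members and all gene lists were chosen with earlier results of these data known, as were the alternatives, among them leaving out both arrays of replicate 2. The rule for values on each array took members with the same sign in all 4 pairs and a call in AGO2 IP against Total RNA with the block, or a call in another contrast with all arrays, and 8 members met it. The other members with values on each array were chosen after their values were seen. Probe sequences were not used, and mature microRNAs are from RefSeq (GRCh38.p14).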

Additional observations from a re-analysis of the deposited data

How the results depend on the processing

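None of the 8 members called in AGO2 IP against Total RNA with the block changed direction there under any alternative tried. Each had the same sign in every pair of arrays within a replicate and construct, so fits on part of the arrays could hardly reverse it. Of the 22 members not called, 8 changed sign without both arrays of replicate 2 that go against their labels or in 1 replicate alone. CYLD, ZMYND11 and CCND2, at 0.18, 0.12 and 0.03 with all arrays, were at -0.23, -0.05 and -0.05 without both arrays and at -0.75, -0.33 and -0.44 in replicate 1 alone. PRKAA1 (0.37) was at -0.0085 in replicate 1 alone. In replicate 2 alone ULK1 (0.60) was at -0.35, FBXO31 (0.85) at -0.0127, PPP2R5E (-0.33) at 0.47 and MAPK9 (-0.14) at 0.0072. In AGO2 IP against Total RNA the count of members called was 0 without the block, as also with no filter on low values and with median centring, neither blocked. With the replicate block it was 8, beside 4.71% of all genes higher and 11.3% lower. With the block and median centring it was 7, beside 526 of 12824 genes higher and 1461 lower. With the block and cyclic loess it was 7, beside 619 and 788. The count of members was 5 with the block and the mean of all probe sets, and 8 with an intensity trend. For these 2 settings the count over all genes is not given here. It was 17 without both arrays of replicate 2 that go against their labels, 19 in replicate 1 alone and 9 in replicate 2 alone, and 0 to 14 with each array left out in turn. In AGO2 IP against IgG IP it was 0 with all arrays, 17 in replicate 1 alone, 13 without both arrays (a count that the choice of these arrays, made on this difference, sets in part) and 0 to 0 with each array left out. In IgG IP against Total RNA it was 1 with the block, with the block and centring, cyclic loess, probe set means or the trend, in replicate 1 alone and without both arrays, 8 in replicate 2 alone, and 0 to 1 with each array left out. Over all genes, 0.296% were higher and 1.62% lower in IgG IP against Total RNA with the block. The blocked values changed no call in the construct contrasts or the interaction. Cyclic loess with the block changed the split of all genes in AGO2 IP against Total RNA to 619 higher and 788 lower, against 604 and 1447, and that of the members to 5 and 2, against 5 and 3.

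The median construct difference over the members in the AGO2 IP was 0.49 with cyclic loess, 0.41 with probe set means and 0.42 without both arrays, and 0.32 to 0.84 with each array left out. In the IgG IP it was -0.14 without both arrays and -0.10 to 0.78 with each left out, and in Total RNA -0.0495 to 0.16. The interaction's median was 0.52 without both arrays and -0.14 to 0.64 with each left out. Where an array was left out, its group's lone array was assumed to vary like the others. The cause of these changes was not tested. Fits of 1 replicate were not run for the construct contrasts or the interaction, which then have 1 array a group. The array values carry no depth or detection call here, so signals near the filter, such as those of CCND1 and ATXN1 in replicate 1, are the least certain.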
